A study of Bos taurus with 34 samples.

Results

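The middle of the uterine horn and the uterine body were compared in the endometrium, the inner lining of the bovine uterus. The 10 mid-horn libraries and the 5 uterine-body libraries were taken as a set by the region named in their labels, and they are 15 of the 34 RNA sequencing libraries of the series. They came from 5 adult Holstein heifers that had never calved, numbered 10872, 10882, 11033, 11070 and 11110, whose cycles were synchronized with the 5-day CIDR-Synch protocol, which uses a progesterone insert, and which were slaughtered on day 2 after ovulation. Each heifer gave a mid-horn library from the ipsilateral side, which is the side of the ovulation, one from the contralateral side, and, by the labels, 1 library of the uterine body. No animal was left untreated, so all groups share the synchronization. In the means and SDs below, the mid horn of a heifer was the mean of its sides, set beside the body of the same heifer, so that n = 5. The main test instead took each of the 34 libraries as an observation, with the heifer as a block. Its contrast was the mean of the mid-horn sides minus the body, so its p-values do not rest on 5 paired values alone.

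The uterus and the oviduct form from the Müllerian ducts, and the position of a cell along that tract is marked during development by the HOX genes, transcription factors arranged in the clusters HOXA, HOXB, HOXC and HOXD. Genes at the posterior end of a cluster, with high paralog numbers, are active toward the cervix and vagina, and HOXA10 and HOXA11 are known for their role in the uterus. The endometrium holds a luminal and a glandular epithelium, a stroma of fibroblasts, blood vessels and immune cells. All were sequenced together here, so a lower level may come from fewer cells of a type or from less RNA per cell, and these cannot be told apart.

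The tissue labels were first checked for uterus against oviduct, a check that does not tell the mid horn from the body. HOXA10 was at 75.5 to 218 CPM (the count as a share of its library total, scaled between libraries by the TMM method) in the mid-horn libraries and at 53.6 to 126 CPM in the body libraries, against a mean of 0.00517 CPM in the ampulla of the oviduct. The stromal collagen gene COL3A1 was at 18012 CPM or more in each mid-horn library and at 22107 CPM or more in each body library. FOXA2, a transcription factor of endometrial glands, had means of 61.7 ± 7.68 CPM in the mid horn and 50.7 ± 15.1 CPM in the body (SD, n = 5). Its mean in the ampulla was 73.4 CPM, so FOXA2 does not tell uterus from oviduct here. A pair of libraries stood apart from the rest. The contralateral mid-horn library of heifer 10882 carried transcripts of the oviduct lining: the summed level of a list of 9 oviduct epithelial genes was 1321 CPM there and at most 83.5 CPM in the other 9 mid-horn libraries, with MSLN at 793 CPM and KRT5 at 454 CPM. The body library of heifer 11033 had 23.5% of its counts in 18S ribosomal RNA, where the other body libraries had 0.674% to 4.17%. Total counts were 18074984 to 23287192 per mid-horn library and 15182060 to 26957480 per body library.

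Of the features that passed the test between the regions, most were lower in the mid horn. Among 17241 features tested with edgeR's quasi-likelihood test, most of them single transcripts, 767 (4.45%) passed at a Benjamini-Hochberg adjusted p under 0.05. Of these 91 (0.528%) were higher and 676 (3.92%) were lower in the mid horn than in the body. The median log2 fold change was 0.71 among the higher ones and -1.76 among the lower ones, against -0.06 over all features tested. The lower ones were low in level, with a median of 3.59 CPM in the body, while the higher ones had a median of 101 CPM there and all features 2.04 CPM. Features that matched no RefSeq gene name made up 333 of the 676. Among the 10720 protein-coding features 82 passed as higher and 275 as lower, whereas 1463 were higher and 1346 lower at an unadjusted p under 0.05, and 6016 of the fold changes were above 0.

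This count rested on a narrow margin. HOXD13 alone had an adjusted p under 0.04, and the other 766 lay between 0.04 and 0.05, many of them at the same adjusted value of 0.0408. Without the contralateral mid-horn library of heifer 10882, 1 feature (0.00581%) passed, and that was HOXD13. The same single feature passed without the body library of heifer 11033, without the heifer as a block, and when the sides of each heifer were summed to give 5 against 5 libraries. In edgeR fits limited to the 15 mid-horn and body libraries 3028 features (21.3%) passed, 1083 higher and 1945 lower, so that 35.8% of the calls were higher against 11.9% in the fit of all regions, and 1453 (9.87%) passed in that fit without the doubted mid-horn library. All 767 features kept their direction without that library. At an unadjusted p under 0.05, 4833 features (28%) differed, 1657 (9.61%) higher and 3176 (18.4%) lower in the mid horn, and 4462 did so without that library. Every gene below other than HOXD13 that is said to have passed between mid horn and body missed the threshold when either of those libraries was left out of the fit of all regions.

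**Figure D1:**
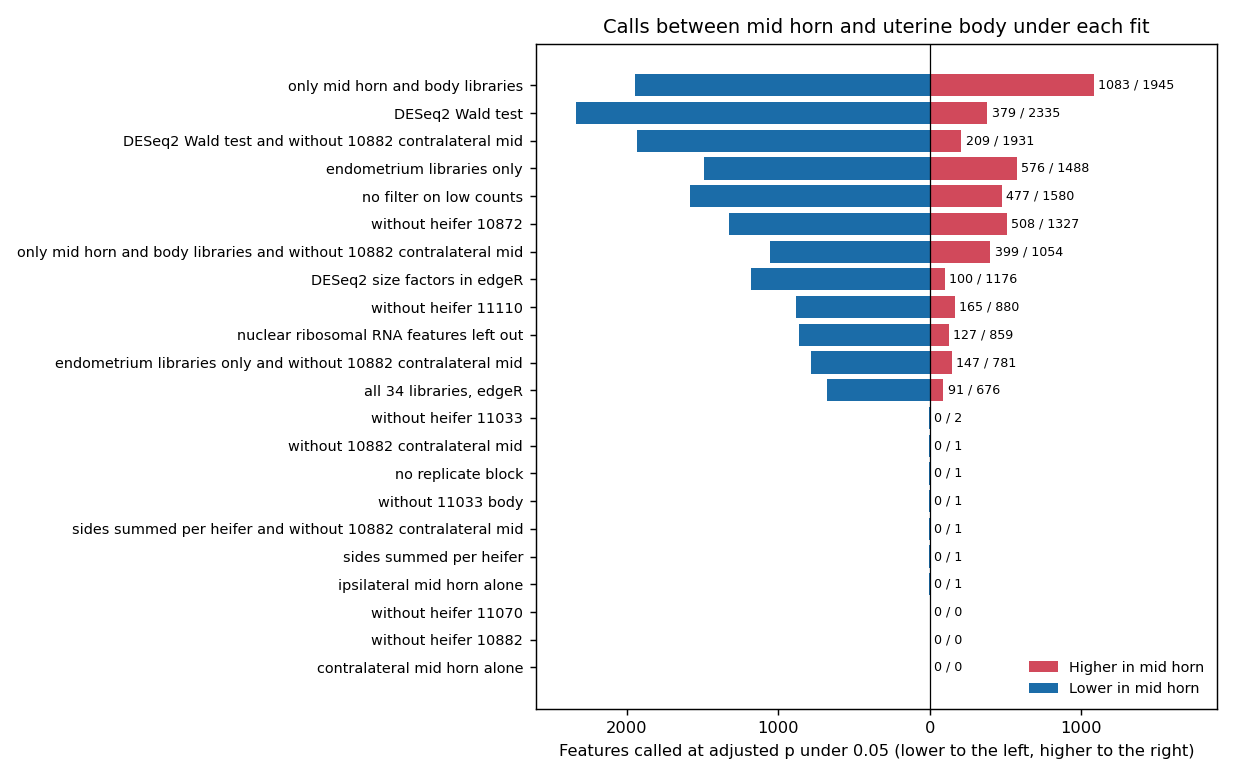
Number of features that passed at an adjusted p under 0.05 in each fit, drawn to the left of 0 for features lower in the mid horn and to the right for features higher, with both numbers (higher / lower) printed beside the bars. The fit of all 34 libraries has 91 higher and 676 lower features, and the same fit without either library that stood apart has 0 higher and 1 lower.

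The heifers differed in how far their regions lay apart. The SD of the log2 difference over features was 1.07 in heifer 11033, 0.72 in 10882, 0.57 in 11070, 0.50 in 11110 and 0.37 in 10872. Of the 767 features, 100% had the called direction in heifers 10882 and 11033, 98.7% in 11070, 97.9% in 11110 and 80.4% in 10872, but these heifers entered the test that chose them. Over all features tested, 10.5% were higher and 13.5% were lower in the mid horn in 5 of 5 heifers. In heifer 10872 the features that passed as lower had a median log2 difference of -0.28, where heifer 11033 had -2.17. The pattern across features in heifer 10872 correlated with that of the others at Pearson's r of -0.18 to 0.22, and the other 4 heifers correlated with each other at r of 0.36 to 0.67. These are descriptions across features, which are not independent, and each heifer's difference shares its body library over all features.

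HOXD13, the most posterior gene of the HOXD cluster, was the clearest difference between the regions. In the body it was at 7.45 CPM in heifer 10872, 4.26 in 10882, 3.63 in 11070, 2.34 in 11110 and 0.668 in 11033. In the mid horn it was at 0.0501 CPM in the lowest library, 0.313 at the median and 0.801 in the highest. The regions overlapped only through heifer 11033, whose body library lay below both mid-horn libraries of heifer 10872, and within each of the 5 heifers the body was above the mean of the mid horns. The means were 0.373 ± 0.250 CPM in the mid horn and 3.67 ± 2.52 CPM in the body (SD, n = 5), with a log2 fold change of -3.21 ± 0.44 (SE) and an edgeR adjusted p of 0.00146. Its counts were few, 82 over the 10 mid-horn libraries and 480 over the 5 body libraries, a ratio of rates of 10.4 with a 95% interval of 8.20 to 13.3 that covers counting error only. Across the 21 other settings the log2 fold change ran from -3.54 to -2.89 and the adjusted p from 3.716e-10 to 0.157. HOXD13 missed the threshold in 3 of them: the contralateral side alone at an adjusted p of 0.116, without heifer 10882 at 0.157 and without heifer 11070 at 0.0845.

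HOXA13, the counterpart in the HOXA cluster, followed the same order of regions with a smaller difference. The body libraries held 11.2 CPM in heifer 10872, 21.5 in 10882, 9.96 in 11033, 8.62 in 11070 and 8.52 in 11110. The mid-horn libraries ran from 1.72 CPM over a median of 3.86 to 10.2, and the highest of them, the ipsilateral one of heifer 10872, was the only mid-horn value above the lowest body value. The log2 fold change was -1.52 ± 0.45, with an edgeR adjusted p of 0.0483 that became 0.0772 without the contralateral mid-horn library of heifer 10882 and ranged from 0.00169 to 0.466 over 21 settings. HOXA13 was lower in the mid horn in 5 of 5 heifers.

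The upper horn, next to the oviduct, extends this order. HOXD13 had a mean of 0.0229 ± 0.0214 CPM in the upper horn and 0.00616 CPM in the ampulla, and HOXA13 had 1.24 ± 1.09 CPM in the upper horn and 0.0437 CPM in the ampulla (SD, n = 5). Set against the mid horn, the upper horn was lower in HOXD13 by a log2 fold change of -3.89 ± 0.61 (edgeR adjusted p = 0.00643). That call was lost with no replicate block (adjusted p = 0.0681) and without heifer 10872 (0.245), 10882 (0.114), 11033 (0.111) or 11070 (0.0898), 5 of 12 other settings, over which the log2 fold change ran from -4.43 to -3.68. For HOXA13 that value was -2.07 ± 0.43 with an adjusted p of 0.159, which did not pass. This comparison shares the mid-horn libraries with the comparison to the body. Only 5 HOXD13 counts were seen over the upper-horn libraries, so its level there rests on very few reads.

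**Figure D2:**
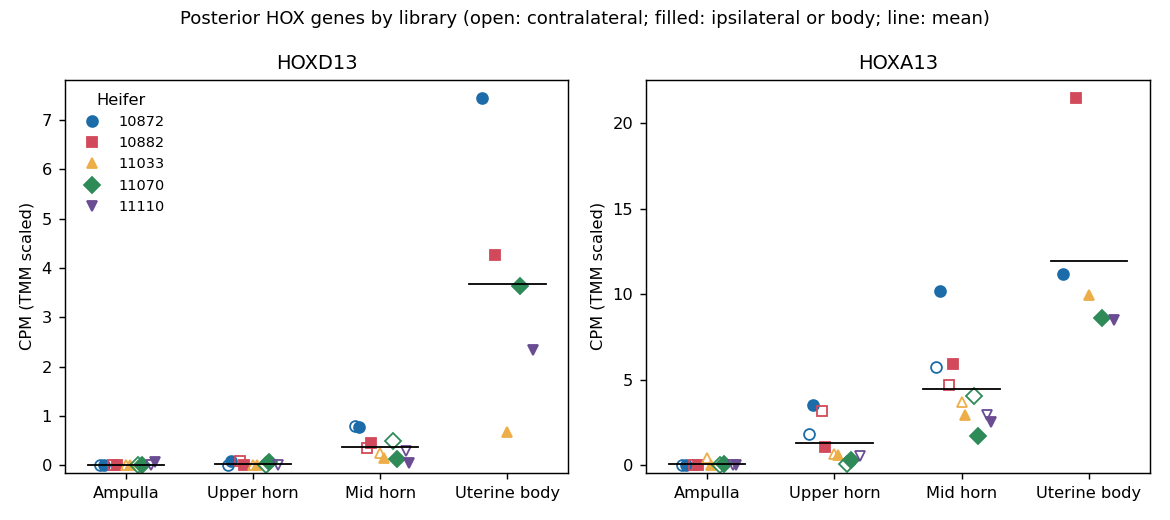
HOXD13 and HOXA13 in each library, in TMM-scaled CPM on a linear axis, by region from the ampulla to the uterine body; symbols mark the heifer, open symbols the contralateral side and filled symbols the ipsilateral side or the body, and lines the mean. HOXD13 has its mean at 0.373 CPM in the mid horn and 3.67 in the body, where heifer 11033 lies lowest at 0.668.

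The other HOX genes did not follow paralog number in this way. Of 29 HOX genes tested, 2 passed, both lower in the mid horn, where 3.92% of all features passed as lower. Their median log2 fold change was -0.19, and it was -0.10 without the body library of heifer 11033. For all 4 tested genes of paralog group 9, which had values of -0.45 to -0.01, none had an unadjusted p under 0.05. The 2 genes of group 10 ran from -0.21 to 0.38 and the 3 of group 11 from -0.61 to 0.41, also with none at that level. HOXA11 had means of 281 ± 55.2 CPM in the mid horn and 209 ± 95.5 in the body (SD, n = 5), higher in 4 of 5 heifers, and did not pass (adjusted p = 0.376). Among groups 5 to 8, 5 of 9 genes had an unadjusted p under 0.05, against 28.0% of all features, and none passed after adjustment. Of these 5, HOXA6, HOXB5, HOXB6 and HOXB8 were lower in the mid horn and HOXC5 was higher. HOXC5 had 1.65 ± 0.703 CPM in the mid horn and 0.921 ± 1.25 in the body (adjusted p = 0.0952), and HOXB2, of groups 1 to 4, 132 ± 27.1 against 93.5 ± 21.1 CPM (adjusted p = 0.108), each higher in 4 of 5 heifers. HOXB6, a gene of the middle of the HOXB cluster, had 675 ± 196 CPM in the mid horn and 1103 ± 396 in the body (adjusted p = 0.0516), lower in 4 of 5 heifers. HOXB8 had 1.67 ± 0.553 against 3.74 ± 0.765 CPM (adjusted p = 0.0548) and HOXD4 0.929 ± 0.452 against 2.43 ± 0.984 CPM (adjusted p = 0.0745), each lower in 5 of 5 heifers.

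Of 35 HOX genes with a feature, 6 were too low to pass the filter on low counts, namely HOXB1, HOXB13, HOXC10, HOXC12, HOXC13 and HOXD12, and HOXB13 had no count in the 15 libraries. HOXD12 had 3 counts over the mid-horn libraries and 19 over the body libraries, a ratio of rates of 11.2 with a counting interval of 3.31 to 59.2. HOXC12 had 3 and 8 counts, a ratio of 4.73 (1.14 to 27.7), and HOXC13 had 1 and 4, a ratio of 7.09 (0.702 to 349). HOXC10 had 5 and 4, a ratio of 1.42 (0.281 to 6.59). The intervals of HOXC10 and HOXC13 include a ratio of 1. All of these intervals come from counts pooled over libraries and leave out the spread between heifers. They therefore do not test whether the regions differ, for HOXC12 and HOXD12 as well.

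**Figure D3:**
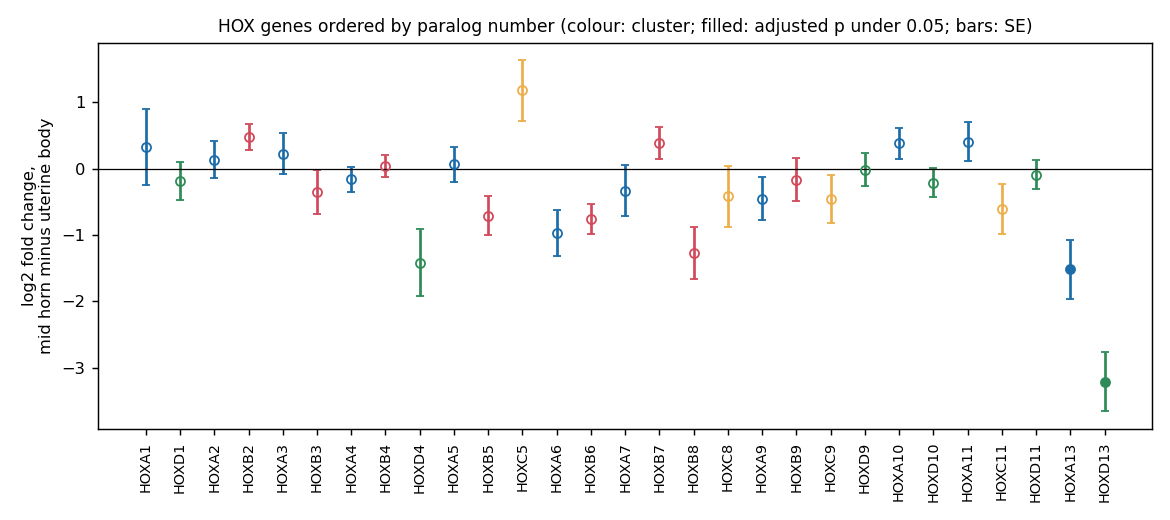
Log2 fold change of mid horn minus uterine body for the 29 HOX genes tested, with SE bars, ordered by paralog number and coloured by cluster; filled symbols passed at an adjusted p under 0.05. HOXD13 at -3.21 and HOXA13 at -1.52 are the filled symbols.

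A rule for naming genes asked for a test passed with and without the doubted mid-horn library, a mean of at least 1 CPM in the higher region and the same direction in 5 of 5 heifers. HOXD13 was the single gene to meet it. Without the condition on the library, 69 features higher and 190 lower in the mid horn met the rest, and genes among the 12 with the highest and the 12 with the lowest fold changes are described next. That relaxation was chosen after the values were seen.

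The genes lowest in the mid horn against the body, apart from HOXD13, were mostly transcripts of about 1 to 8 CPM in the body. They include genes of the matrix and of the actin skeleton. COL5A1, a chain of fibril-forming type V collagen, was at 0.155, 1.84, 1.95, 7.92 and 1.46 CPM in the body of heifers 10872, 10882, 11033, 11070 and 11110, and at 0 to 1.32 CPM in the mid horn with a median of 0.312. Body and mid horn overlapped through heifer 10872. Its log2 fold change was -2.82 ± 0.66 (edgeR adjusted p = 0.0408). FNDC1, a protein with fibronectin type III domains, had 1.58 ± 1.80 CPM in the mid horn and 7.92 ± 10.6 in the body (SD, n = 5), where heifer 11070 reached 26.7 CPM in the body and the other 4 had 2.25 to 5.12. SORBS3, an adaptor of cell adhesions, was at 0.480 ± 0.329 against 2.34 ± 1.31 CPM.

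A transcript of GSN, which codes for the actin-severing protein gelsolin, was at 0.255 ± 0.211 CPM in the mid horn and 1.67 ± 1.09 in the body, with a log2 fold change of -3.04 ± 0.64. A further GSN transcript also passed, at -2.50 ± 0.61, whereas over its 3 tested transcripts the values ran up to -0.07. GPSM1, a regulator of G-protein signalling, had the lowest value of these genes, -3.33 ± 0.75, for 1 of 4 tested transcripts, and the others ran up to -0.07 and did not pass. The fold changes of these genes therefore describe particular annotated transcripts and not the whole gene. Both tested transcripts of COL5A1, at -2.91 and -2.82, and both of SORBS3, at -2.52 and -2.23, passed. For FNDC1 1 of 2 tested transcripts passed, at -2.57, and the other was at -0.53.

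Transcription and chromatin genes were also among them. KLF11, a zinc-finger transcription factor, had 1.18 ± 0.836 CPM in the mid horn and 4.45 ± 3.10 in the body, and SIRT2, an NAD-dependent deacetylase, 0.591 ± 0.456 and 2.77 ± 1.47. The KLF11 values are for 1 of 2 tested transcripts, and the other, at a log2 fold change of -0.56, did not pass. RRP1B, a nucleolar protein, had 0.206 ± 0.146 and 1.01 ± 0.572 CPM. C13H20orf144 had 0.262 ± 0.161 and 1.32 ± 0.849 CPM. SLC4A3, an anion exchanger, had 0.243 ± 0.313 and 1.45 ± 1.94 CPM, and its body level in heifer 11033 was 4.78 CPM where the other 4 heifers had 0.155 to 1.51. A further SLC4A3 transcript, at a log2 fold change of -2.38, did not pass. Without the body library of heifer 11033 the fold changes of 13 named transcripts that had passed as lower, and of none that had passed as higher, became more than 1.5 times smaller. The log2 fold change of SLC4A3 went from -2.78 to -1.36, KLF11 from -2.53 to -1.41, C13H20orf144 from -2.54 to -1.49, RRP1B from -2.49 to -1.78 and SIRT2 from -2.49 to -1.82. Among the genes above, GPSM1 went from -3.33 to -2.28, the GSN transcripts from -3.04 to -2.11 and from -2.50 to -1.82, and COL5A1 from -2.82 to -2.11. PAX2, GREB1, TYMS and TNFSF10, described with their lists, are the other 4.

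Complete separation of the regions was rare. All 10 mid-horn libraries lay below all 5 body libraries in 40 features (0.232%) and above them in 12 (0.0696%), and 16 and 4 of these passed the test. TNFRSF19, a receptor of the tumour necrosis factor family that is known as a WNT target, was one of the lower ones. The body held 18.2, 52.6, 37.0, 29.2 and 20.3 CPM in heifers 10872, 10882, 11033, 11070 and 11110, and the mid horn 4.93 to 16.8 CPM with a median of 10.8. Every body library was above every mid-horn library, and the log2 fold change was -1.65 ± 0.36 (edgeR adjusted p = 0.0408). ANPEP, the membrane aminopeptidase N, was at 1.51 to 3.12 CPM in the body and 0.301 to 1.06 in the mid horn. CSNK1B, a casein kinase gene, was at 12.9 to 15.5 CPM in the body and 3.80 to 10.5 in the mid horn. In the other direction TUBA4A, an alpha tubulin, was at 17.5 to 38.4 CPM in the mid horn and 12.3 to 17.3 in the body, with a log2 fold change of 0.88 ± 0.21. These 4 genes were picked out after their values were seen. Each missed the threshold without the contralateral mid-horn library of heifer 10882, at an adjusted p of 0.0675.

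Epithelial keratins and claudins were among the genes higher in the mid horn. Of the 14 tested genes on a list of general epithelial markers, 4 passed and all 4 were higher, against 0.528% of all features. The fold changes of 11 were above 0 and those of 3 below. At an unadjusted p under 0.05 in edgeR's test, 9 were higher and 1 was lower, against 9.61% and 18.4% of all features. The median log2 fold change of that list was 0.79, 0.68 without the doubted mid-horn library and 0.68 without the body library of heifer 11033. The summed level of the list was 2275 to 4685 CPM over the mid-horn libraries and 1029 to 4248 over the body libraries, and it was higher in the mid horn in 5 of 5 heifers. The part that the share of epithelium plays in the other genes higher in the mid horn was not tested.

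KRT8 and KRT18, the keratin pair of simple epithelia, showed the pattern in each heifer. KRT8 was at 532, 266, 161, 267 and 223 CPM in the body of heifers 10872, 10882, 11033, 11070 and 11110 and at 361 to 999 CPM in the mid horn, with a median of 495. Only the body of heifer 10872 reached into the range of the mid horn. Its log2 fold change was 0.93 ± 0.22 (edgeR adjusted p = 0.0408), and it was 0.82 without the library of heifer 10882, which held the 999 CPM. KRT18 was at 244 ± 64.8 CPM in the mid horn and 132 ± 60.2 in the body (SD, n = 5). KRT7 had 326 ± 66.1 against 158 ± 171 CPM, but its body library in heifer 10872 held 457 CPM, and the mid horn was higher in 4 of 5 heifers.

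CLDN4, a tight-junction claudin, was at 433, 143, 39.6, 105 and 64.9 CPM in the same order of body libraries and at 129 to 446 CPM in the mid horn. The bodies of heifers 10872 and 10882 lay within the range of the mid horn, and the log2 fold change was 1.09 ± 0.30. CLDN6 had 18.5 ± 5.03 CPM in the mid horn and 7.28 ± 7.67 in the body. CLDN9 had 2.13 ± 1.94 and 0.268 ± 0.302 CPM, and 10.9 CPM of CLDN9 lay in the doubted library, without which its log2 fold change went from 2.85 to 2.06. EPCAM, the epithelial cell adhesion molecule, had 732 ± 206 and 484 ± 223 CPM and did not pass (adjusted p = 0.0934). KRT19 had 530 ± 142 and 251 ± 229 CPM at an adjusted p of 0.0501.

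KRT5, a keratin of basal cells and of the oviduct lining, had the highest fold change of these genes and depended most on 1 library. It was at 0.111 to 1.36 CPM in the body and 0.273 to 40.5 CPM in 9 mid-horn libraries, and at 454 CPM in the contralateral mid horn of heifer 10882. The log2 fold change of 4.12 ± 1.15 became 2.65 without that library. Of the basal markers TP63, KRT15 and KRT4 had no count in any of the 15 libraries. WFDC15B, of the WAP protease-inhibitor family, behaved alike, with 18.5 CPM in that library, 0.555 to 5.46 in the other 9 and 0.464 to 2.56 in the body, and its log2 fold change went from 1.89 to 1.29 without it. SERPINB5, known as maspin, had 5.37 ± 1.72 CPM in the mid horn and 1.81 ± 0.663 in the body, and it was also highest in that library, at 11.97 CPM.

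MMP9, a gelatinase that is also made by neutrophils, was at 0.349, 0.0635, 0, 0.271 and 1.61 CPM in the body of heifers 10872, 10882, 11033, 11070 and 11110. In the mid horn it reached 33.2 and 24.7 CPM in heifer 11110 and 12.4 and 2.83 CPM in heifer 11033, and the other 6 libraries held 0.227 to 1.25 CPM. The high values came from both sides of those heifers, and none from the doubted library, which had 0.778 CPM. The log2 fold change was 3.31 ± 0.80 (edgeR adjusted p = 0.0408), 3.46 without the doubted library. The collagenases MMP1 and MMP13 lay in the same direction in 5 of 5 heifers and did not pass. MMP1 had 3.97 ± 7.53 CPM in the mid horn, with 27.7 CPM in the contralateral library of heifer 11110, and 0.249 ± 0.413 in the body (adjusted p = 0.0516). MMP13 had 1.76 ± 0.834 and 0.406 ± 0.583 CPM (adjusted p = 0.0700). Of 8 neutrophil markers with a feature, 2 were tested, and MMP9 was the one that passed.

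The remaining genes of this direction have mixed roles. LGALS7B, of the galectin-7 family, had 14.5 ± 6.06 CPM in the mid horn and 5.01 ± 3.34 in the body. GNMT, a glycine methyltransferase, had 6.60 ± 2.90 and 3.19 ± 3.77 CPM, MGST1, a membrane glutathione transferase, 21.8 ± 9.14 and 11.8 ± 10.3 CPM, and VSNL1, a neuronal calcium sensor, 1.82 ± 0.812 and 0.650 ± 0.326 CPM. Each of the 4 was higher in 5 of 5 heifers, which the rule for naming required, and their ranges overlapped between the regions.

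**Figure D4:**
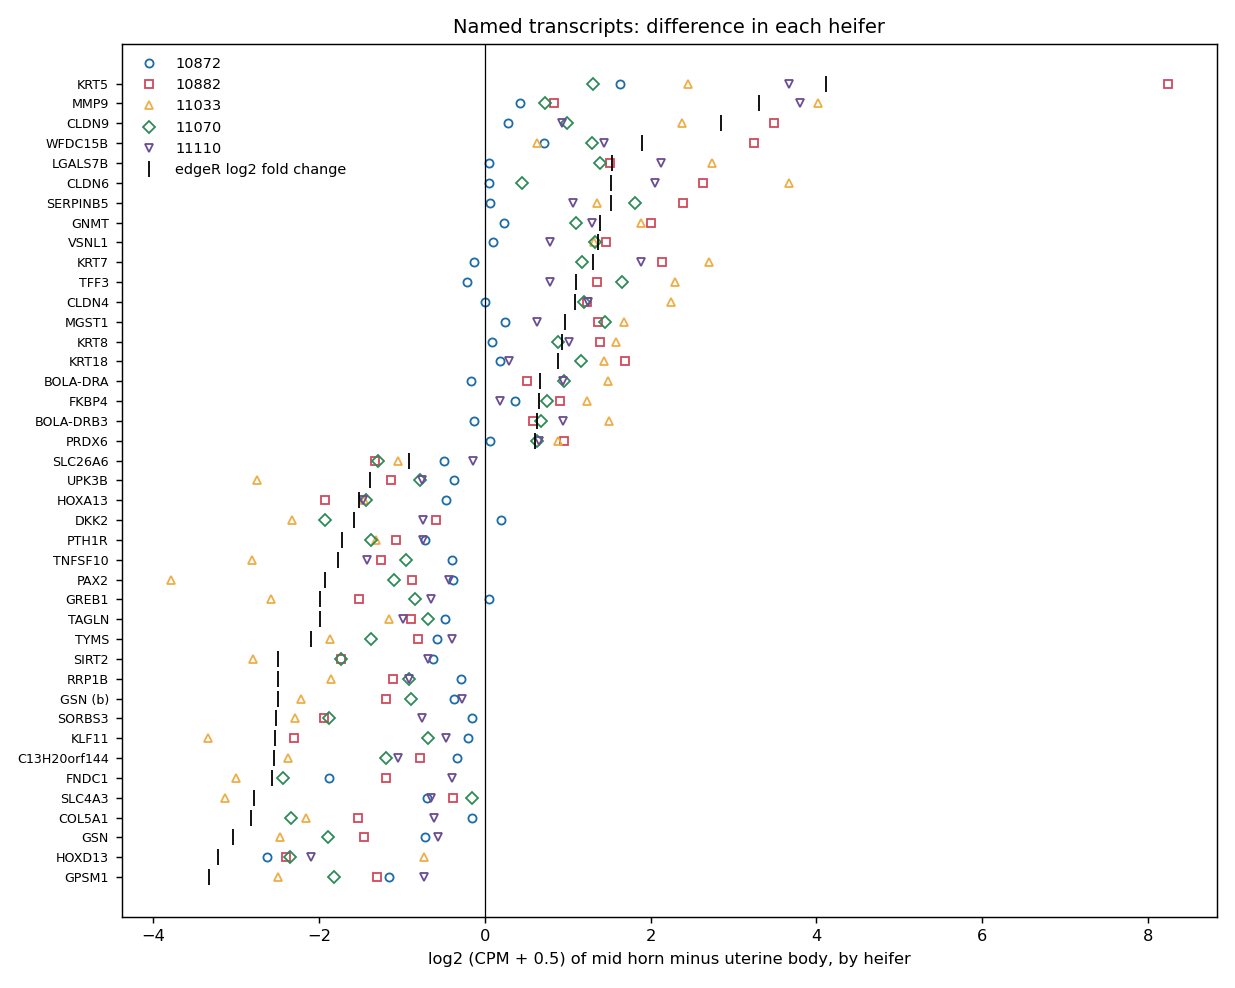
Difference of mid horn minus body in each of the 5 heifers on the scale of log2(CPM + 0.5), for 41 named transcripts (GSN has 2), with the edgeR log2 fold change as a bar. Heifer 10872 lies nearest to 0 for most transcripts, and KRT5 in heifer 10882 lies farthest to the right.

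Lists of cell type markers and pathways, drawn up with earlier results of these data known, are given by how many tested members passed and by their median log2 fold change; over all features 0.528% passed as higher, 3.92% as lower, and the median was -0.06. With DESeq2's size factors in place of TMM the median of all features was -0.17, and the medians of the stroma, proteoglycan, matrix protease, semaphorin and immediate early lists were then below 0 instead of above. Among the epithelial lists, oviduct epithelium had 1 of 9 higher (KRT5) and a median of 2.14, which was 0.62 without the doubted library. Basal and squamous epithelium had 1 of 5 higher, again KRT5, at a median of 0.86, and 0.40 without that library. Mucus and cervical secretory cells had 1 of 10 higher, TFF3, a mucin-associated peptide with 36.8 ± 9.97 CPM in the mid horn and 17.5 ± 9.76 in the body, at a median of 0.74. Neither the 9 endometrial gland genes (median 0.45) nor the 16 ciliated epithelium genes (0.36) had a member that passed. KLF5, of the gland list, had 74.9 ± 10.1 against 45.0 ± 11.4 CPM at an adjusted p of 0.0595, higher in 5 of 5 heifers.

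Few markers of the stroma, muscle and vessels passed. The stroma list had 1 of 16 lower (COL5A1) and a median of 0.05, and its summed level was 38277 to 78090 CPM in the mid horn and 48961 to 86468 in the body. The smooth muscle list had 1 of 14 lower and a median of -0.36, with 10 of 14 values below 0. The member that passed was a transcript of the actin-binding gene TAGLN, at 0.269 ± 0.163 against 0.869 ± 0.262 CPM. Both of its means lie under 1 CPM, and they describe that transcript and not the whole gene. The median of the muscle list was -0.46 with DESeq2's size factors, -0.38 without the body library of heifer 11033 and -0.24 with the 15 libraries only. Its summed level was 612 to 1432 CPM in the mid horn and 650 to 904 in the body. That sum was higher in the mid horn in 3 of 5 heifers, so it shows no common direction. DES, the muscle intermediate filament desmin, was at 113 ± 30.5 CPM in the mid horn and 125 ± 36.9 in the body (SD, n = 5). DES was lower in the mid horn in 5 of 5 heifers, by small differences of -0.28 to -0.02 on the log2(CPM + 0.5) scale, and did not pass (adjusted p = 0.864). The 7 pericyte genes had none that passed, with 6 of 7 below 0 and a median of -0.20, and their summed level was lower in the mid horn in 5 of 5 heifers. The 11 blood endothelium genes also had none, with 10 of 11 below 0 and a median of -0.32. The 10 nerve and Schwann cell genes (-0.01), 3 lymphatic endothelium genes (0.37) and 3 adipocyte genes (0.40) had none either. Mesothelium had 1 of 6 lower, the uroplakin UPK3B, at 3.99 ± 1.95 against 9.26 ± 3.36 CPM, and a median of 0.21.

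Among immune lists, neutrophils had the 1 of 2 named above (median 1.72), and the 11 T and NK cell genes (0.48), 5 B and plasma cell genes (0.79), 8 macrophage and dendritic cell genes (0.34), 3 mast cell genes (-0.05) and 3 erythroid genes (0.33) had none that passed. Antigen presentation had 2 of 12 higher (median 0.31), both chains of the class II molecule that shows peptides to helper T cells. BOLA-DRA had 622 ± 46.8 CPM in the mid horn and 393 ± 165 in the body, and BOLA-DRB3 had 621 ± 100.1 and 390 ± 126, each higher in 4 of 5 heifers. The 21 complement and antimicrobial genes (0.57) and the 27 interferon-stimulated genes (0.14) had none that passed. Chemokines and cytokines had 1 of 41 lower (median 0.35), and candidate embryokines 1 of 23 lower (0.38). In both lists that gene was TNFSF10, the death ligand TRAIL, at 2.997 ± 1.93 against 9.18 ± 5.64 CPM, and its log2 fold change went from -1.78 to -1.15 without the body library of heifer 11033.

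Developmental lists had few members that passed. Müllerian duct and mesenchyme regulators had 1 of 31 lower (median 0.14), PAX2, a transcription factor of the early duct. PAX2 was at 2.06, 4.83, 17.8, 3.13 and 3.99 CPM in the body of heifers 10872, 10882, 11033, 11070 and 11110 and at 0.654 to 3.11 CPM in the mid horn, so that the size of its log2 fold change of -1.93 ± 0.52 rested on heifer 11033 and was -0.82 without that body library. EMX2, which is required for the duct, had 166 ± 19.0 and 118 ± 23.6 CPM and did not pass (adjusted p = 0.324). WNT ligands, R-spondins and inhibitors had 1 of 36 lower (0.20), the WNT antagonist DKK2 at 1.65 ± 1.14 against 4.23 ± 2.05 CPM, lower in 4 of 5 heifers. SFRP4, a secreted WNT-binding protein, had 306 ± 151 against 111 ± 93.9 CPM at an adjusted p of 0.0677.

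Other signalling lists had none that passed, namely the 34 BMP, GDF, activin and TGF-beta signals (0.21), 24 FGF and EGF family signals (0.28), 12 Notch pathway genes (-0.29), 15 retinoic acid genes (0.28), 20 genes of the IGF system and growth hormone receptor (0.27) and 30 semaphorins, ephrins and axon guidance genes (0.07). In the Notch list, the receptor NOTCH3 had 345 ± 57.7 against 504 ± 131 CPM and the ligand JAG1 184 ± 38.3 against 237 ± 57.3 CPM. Both were lower in the mid horn in 5 of 5 heifers, as were 13.5% of all features, and did not pass, at edgeR adjusted p of 0.169 and 0.0898.

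Steroid and peptide hormone receptors and partners had 1 of 22 higher and 1 lower (median -0.02). FKBP4, a cochaperone of steroid receptors, had 572 ± 112 CPM in the mid horn and 355 ± 78.1 in the body, higher in 5 of 5 heifers (log2 fold change 0.66 ± 0.19). GREB1, an oestrogen-regulated coactivator, had 1.07 ± 0.460 and 3.23 ± 1.89 CPM, lower in 4 of 5 heifers, with a log2 fold change of -1.98 that was -0.96 without the body library of heifer 11033. PGR, the progesterone receptor, had 21.7 ± 6.77 and 20.6 ± 7.003 CPM, higher in 3 of 5 heifers, and did not pass (adjusted p = 0.969). OXTR, the oxytocin receptor, was at 53.3 to 241 CPM in the mid horn and at 282, 24.2, 26.6, 49.3 and 64.2 CPM in the body of heifers 10872, 10882, 11033, 11070 and 11110 (adjusted p = 0.194). The 8 prostaglandin genes (0.43) had none that passed. Neuropeptides and peptide receptors had 1 of 27 lower (-0.05), the parathyroid hormone receptor PTH1R at 0.633 ± 0.410 against 1.89 ± 1.01 CPM.

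Matrix lists were mixed. Collagens had 1 of 20 lower, COL5A1 (median -0.10), matrix proteases and their inhibitors had 1 of 38 higher, MMP9 (0.07), and the 46 proteoglycans and matrix glycoproteins had none (0.04). COL6A2, a chain of type VI collagen, had 1.53 ± 0.915 against 4.57 ± 2.57 CPM at an adjusted p of 0.0516, lower in 5 of 5 heifers. Immediate early genes (22, median 0.10) and nutrient transporters (32, 0.10) had none that passed. Ion, bicarbonate and water transport had 1 of 29 lower (0.12), the anion exchanger SLC26A6 at 22.6 ± 7.76 against 41.7 ± 14.6 CPM. Proliferation had 1 of 15 lower (0.49), a transcript of thymidylate synthase, TYMS, at 0.348 ± 0.189 against 1.23 ± 0.504 CPM, whose log2 fold change went from -2.09 to -1.33 without the body library of heifer 11033.

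Glutathione and antioxidant enzymes had 1 of 24 higher, PRDX6, a peroxiredoxin with 312 ± 32.7 CPM in the mid horn and 208 ± 73.4 in the body. The median of that list was 0.46. It was 0.37 with DESeq2's size factors and 0.32 without the body library of heifer 11033. At an unadjusted p under 0.05 in edgeR's test, 12 of its 24 genes were higher and none lower, against 9.61% and 18.4% of all features. The superoxide dismutase SOD1 had 308 ± 58.1 and 202 ± 85.6 CPM and the peroxiredoxin PRDX5 600 ± 111 and 360 ± 116, at adjusted p of 0.0699 and 0.0559, each higher in 5 of 5 heifers.

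**Figure D5:**
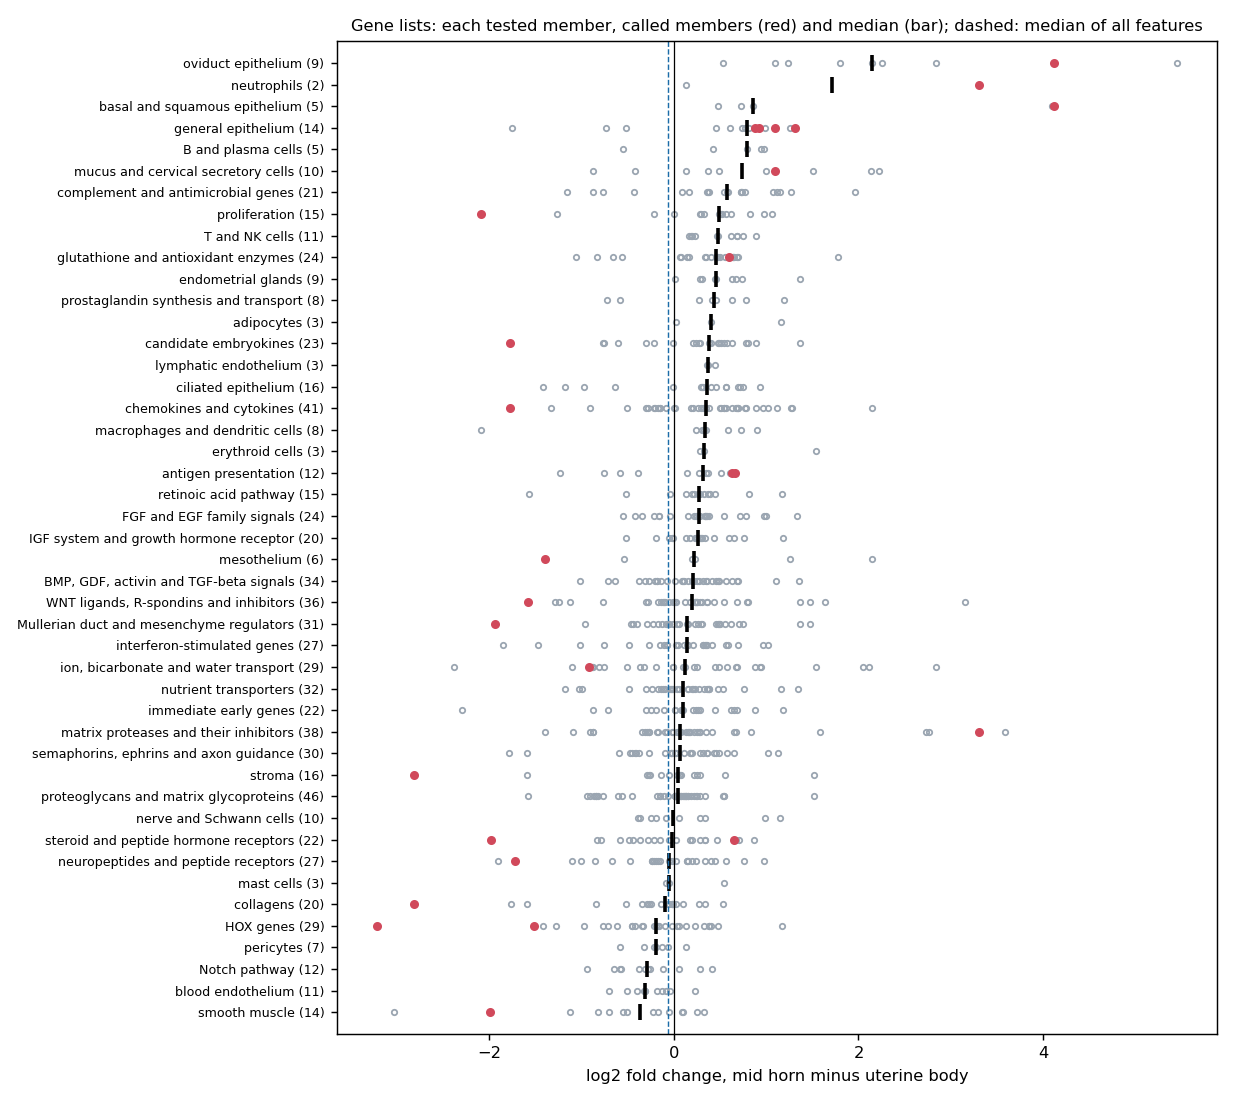
Log2 fold change of mid horn minus body for the tested members of each list (circles, number in brackets), with members that passed in red and the median as a bar; the dashed line is the median of all features, -0.06. The general epithelium list has 4 red members above 0 and a median of 0.79.

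Classes of transcript were grouped after the values were seen. Of all features tested 4.45% passed, 0.528% as higher and 3.92% as lower. The share that passed was 7.33% for features that matched no gene name and 3.33% for protein-coding features. For long noncoding RNAs it was 4.71%, near that of all features. Of the ribosomal protein and oxidative phosphorylation genes below, 6.15% and 8.62% passed. Of 4598 tested features that no RefSeq gene name matched, 4 passed as higher and 333 as lower, with a median log2 fold change of -0.54, which was -0.31 without the body library of heifer 11033. Of 10720 protein-coding features 82 were higher and 275 lower, with a median of 0.09 that was -0.01 with DESeq2's size factors, and of 956 long noncoding RNAs 2 were higher and 43 lower. The 65 genes of cytosolic ribosomal proteins had a median of 0.65, with 60 above 0 and 4 that passed as higher: RPS3A, RPL27, RPL36A and RPL9. RPS3A was at 5350 ± 999.8 CPM in the mid horn and 3269 ± 801 in the body (SD, n = 5). The 58 nuclear genes of oxidative phosphorylation had a median of 0.59, with 3 higher and 2 lower.

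Library measures are given beside these classes. The share of ribosomal protein genes comes from the same counts as their fold changes, so it is not a separate line of support. It was 5.11% in the body library of heifer 11033, which had 23.5% of its counts in 18S ribosomal RNA. Ribosomal protein genes took 11.9% ± 1.67 of the counts in the mid horn and 8.32% ± 2.39 in the body, and 22888 ± 1126 and 25191 ± 1242 features had a count (SD, n = 5). Each of these had the same direction in 5 of 5 heifers, with an exact two-sided sign-flip permutation p of 0.0625, the smallest that 5 pairs allow. Along the main axis of variation among the 15 libraries, which held 39.1% of the variance, the body lay above the mid horn in 5 of 5 heifers and the body library of heifer 11033 lay farthest out. In heifer 10872 the gap was small, with the body at -41.3 and the mid horns at -42.3 and -45.9. That body library lay within the mid-horn range of -58.1 to 31.0, and the other body libraries lay at 49.7 to 77.5. The part of these library measures in the differences of low transcripts was not tested.

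The averaged mid horns were compared with each other as well. Between the ipsilateral and the contralateral mid horn 0 of 17241 features (0.0%) passed edgeR's test, 513 had an unadjusted p under 0.05, and DESeq2 called 19 (0.11%), all lower on the ipsilateral side. Without the contralateral library of heifer 10882, 174 features had an unadjusted p under 0.05. HOXD13 had a log2 fold change against the body of -3.54 on the ipsilateral side (adjusted p = 0.0265) and -2.89 on the contralateral side (0.116), and the difference of the sides was -0.66 ± 0.58 and did not pass.

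Between the upper and the mid horn 3 features (0.0174%) passed. Beside HOXD13 these were GPC3, a glypican of the cell surface, and the noncoding LOC112444517, both higher in the upper horn. GPC3 passed in 6 of 12 other settings and LOC112444517 in 9 of 12. GPC3 had 21.3 ± 10.4 CPM in the upper horn, 6.27 ± 4.63 in the mid horn and 7.98 ± 4.45 in the body, and it did not pass between mid horn and body (adjusted p = 0.578). LOC112444517 had 3.19 ± 1.78, 0.135 ± 0.0299 and 0.148 ± 0.127 CPM in the same order.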

How the data were processed

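The authors deposited 1 table of whole-number read counts, not normalised, with 1 column for each of 34 libraries. Tissue was homogenised with beads, total RNA was cleaned on columns and a directional kit made the libraries, per the labels' protocols. The submitters' processing notes list STAR 2.7.9a, cutadapt, SAMtools and HTSeq, with no roles. The genome build, annotation release, strand setting and counting mode were not given in the sources used here, so overlapping or antisense genes, near-identical copies and transcripts of 1 gene may share or lose reads, and levels of different genes are not compared. Of 38568 features, 26362 were matched to 21554 genes through RefSeq names of assembly ARS-UCD2.0 and held 95.3% of the counts.

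Counts were tested with the robust quasi-likelihood F test of edgeR 4.0.16 (R 4.3.3) after filterByExpr and TMM scaling over all 34 libraries, which share 1 estimate of the spread, with region-by-side group and heifer as terms. The contrast was the mean of the mid-horn sides minus the body, with Benjamini-Hochberg adjustment over 17241 features and a threshold of 0.05. The pairing comes from the heifer number. Deviations from the group means correlated at a median of 0.40 within a heifer (15 library pairs, lowest -0.07) and -0.12 between heifers. No libraries of a group agreed within sampling noise (chi-square per feature of at least 61.5 over 30 pairs). Scripts were tested on simulated data.

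Alternatives were DESeq2 1.42.0, its size factors in edgeR, no filter, no block, fewer libraries, summed sides, each side alone, ribosomal RNA left out, and each heifer or 1 doubted library left out. The 5 on the doubted libraries in combination were chosen after seeing the data. The genes and lists were chosen with earlier results of these data known. Up to 4 members per list that passed were named, with 1 feature per gene, that with the highest mean count. The intervals cover counting error at 95%. Some genes and 1 list that these rules chose are not reported here.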

Additional observations from a re-analysis of the deposited data

Results flagged for a closer look

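Among the 43 named transcripts, 3 had a heifer whose log2(CPM + 0.5) difference of mid horn minus body lay far from the other 4 by Dixon's test for 5 values (critical value 0.71). Chance alone marks about 1 in 20 such groups. Heifer 11033 was the one in each case. For HOXD13 its difference was -0.74, where the other heifers had -2.62 to -2.09. For SLC4A3 it was -3.14, where the others had -0.70 to -0.15. For PAX2 it was -3.78, where the others had -1.10 to -0.38. Heifer 11033 is also the one whose body library had 23.5% of its counts in 18S ribosomal RNA, and the part of that in these differences was not tested.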

How the results depend on the processing

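Between mid horn and body, 767 features passed with all 34 libraries, the heifer as a block and TMM scaling. The count was 1 with no replicate block, 1 with the sides summed per heifer (and 1 without the contralateral mid-horn library of heifer 10882 as well), 1 for the ipsilateral side alone, 0 for the contralateral side alone, 1 without that mid-horn library and 1 without the body library of heifer 11033. Leaving out each heifer gave 0 to 1835, with 1835 without 10872, 0 without 10882, 2 without 11033, 0 without 11070 and 1045 without 11110. It was 1276 with DESeq2's size factors, 986 without ribosomal RNA features, 2057 with no filter, 2064 with endometrium libraries only, 928 there without the doubted mid-horn library, and 3028 with the 15 libraries only, or 1453 without that library. DESeq2's Wald test called 2714, and 2140 without it. The cause of these shifts was not tested.

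No named transcript changed direction under any alternative that could be run. Between the sides the count was 0 with all libraries and with each heifer left out, 19 with DESeq2 and 140 with no filter. Between upper and mid horn it was 3, with 21 under DESeq2, 207 with no filter, 1 with no replicate block and 0 to 2 with a heifer left out (0 without 10882, 11033 or 11070). With no filter, features of very few counts enter, and their calls are not described here. The depth allows few statements on transcripts under 1 CPM.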
